A study of Mus musculus with 6 samples.

Results

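The genes described here are 36 genes of the NF-kB pathway, of chemokines and of leukocyte adhesion. They were chosen by name from general knowledge, with earlier results of these data known, and found by symbol among the 54532 genes of the count table. They comprise 6 cytokine, 8 chemokine and 2 adhesion genes, 4 NF-kB subunits, 5 genes of the IkB family, Tnfaip3 (A20) with its partner Tnip1, 2 subunits of the IkB kinase, 4 TRAF and cIAP genes and 3 other genes that NF-kB is known to induce. Of the 36, 35 had at least 1 count, and 28 passed the filter on low counts and were tested. The other 8 (Tnf, Il6, Il1a, Il1b, Ccl7, Cxcl2, Cx3cl1 and Icam1) are given by their raw counts.

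NF-kB is a family of dimeric transcription factors that wait in the cytoplasm bound to inhibitors of the IkB family. Signals from cytokine receptors and Toll-like receptors pass through adaptors and TRAF proteins to the IkB kinase, which marks the inhibitor for destruction, and the freed dimer enters the nucleus. Its targets include chemokines and adhesion molecules that draw leukocytes, and also its own brakes, among them IkB-alpha and A20, so that the signal limits itself. In liver the pathway is best known from the response of hepatocytes and resident macrophages to microbial products, TNF and injury.

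The 6 libraries were made from total RNA of AML12 cells, a hepatocyte line established from a mouse with a human TGF-alpha transgene, labelled here as wild-type parenchymal liver cells. In 3 libraries the cells had been treated for 24 h with PP at 250 µg/ml, and in 3 with the modelling reagent PA/OA at 400 nM and 800 nM for 24 h. The series title speaks of Camellia oleifera meal peptides and lipid metabolism, and the labels use PP and PA/OA as abbreviations only. It is not stated whether the PP cells received PA/OA as well, and a blank control is not analysed here. All libraries come from a single cell line. Since separate cultures are not stated, the replicate spread behind each p-value may be technical.

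Total counts were 27418502 to 32560589 per PP library and 24113169 to 26825673 per PA/OA library. A difference in abundance between the groups was the common case: 75.0% of 15718 genes tested passed an adjusted p of 0.05 (edgeR), 35.1% higher and 39.9% lower in PP. Fewer genes had any count in PP (19555 to 19779 per library) than in PA/OA (22800 to 23329), and fold changes depend on how libraries are scaled. The summed CPM, the standard rate of counts per TMM-scaled library size, of 14 hepatocyte markers ran from 3733 to 4083 in PP and from 3029 to 3243 in PA/OA, mostly Krt8 and Krt18. The hepatocyte genes Fgb, Cps1, Asgr1 and Serpina1a had too few counts for a test. Alb averaged 9.90 ± 1.38 CPM in PP and 12.2 ± 1.36 CPM in PA/OA (SD, n = 3 each). Hnf4a had 26.8 ± 1.54 and 71.7 ± 5.06 CPM, and Apob 75.8 ± 9.68 and 246 ± 5.93 CPM, in the same order. Of 6 bile duct markers, the keratin Krt19 had 3513 CPM in PP and 2011 CPM in PA/OA. Krt7, Sox9 and Spp1 were also higher in PP, while Epcam and Cftr had no count in any library. Markers of leukocytes summed to 54.3 to 57.7 CPM in PP and 55.1 to 65.1 CPM in PA/OA. Among them the Kupffer cell genes Adgre1 and Clec4f had no count in any library, while Cd68, a lysosomal protein of macrophages that other cells also make, had 27.3 ± 1.63 CPM in PP and 2.78 ± 0.280 CPM in PA/OA. Cd14, the endotoxin co-receptor of monocytes that hepatocytes also make, went the other way, at 27.7 ± 0.450 CPM in PP and 55.7 ± 4.92 CPM in PA/OA, so the similar sums hide opposite changes. Endothelial markers summed to 0.837 to 1.52 CPM in PP and 0.797 to 1.68 CPM in PA/OA, and stellate cell markers to 2.06 to 4.22 CPM in PP and 4.26 to 5.39 CPM in PA/OA. The part of these marker differences in the results below was not tested. In bulk RNA, fewer cells of a type and less RNA per cell cannot be told apart.

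Of the 28 members tested, 12 were higher and 11 lower in PP, and 5 did not pass the test (Rela, Nfkbib, Traf1, Irf1 and Ptgs2). These shares, 42.9% higher and 39.3% lower, lie near the 35.1% and 39.9% of all genes tested. At least 2-fold differences were called for 12 of the 28 (42.9%), against 36.6% of all genes. In the higher direction there were 5 (Ccl5, Ccl2, Nfkbia, Tnip1 and Bcl3), where all genes gave 12.1%. Another 7 were at least 2-fold lower (Csf1, Cxcl5, Nfkbie, Vcam1, Cxcl1, Birc3 and Ccl20), where all genes gave 24.5%. For 23 of the 28 members no PP library lay within the PA/OA range or the reverse, against 77.4% of all genes tested. The members' median log2 fold change, PP over PA/OA, was 0.02, and that of all genes tested was -0.09. What follows is therefore a description of which members went which way, not of a list that stands apart.

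**Figure D1:**
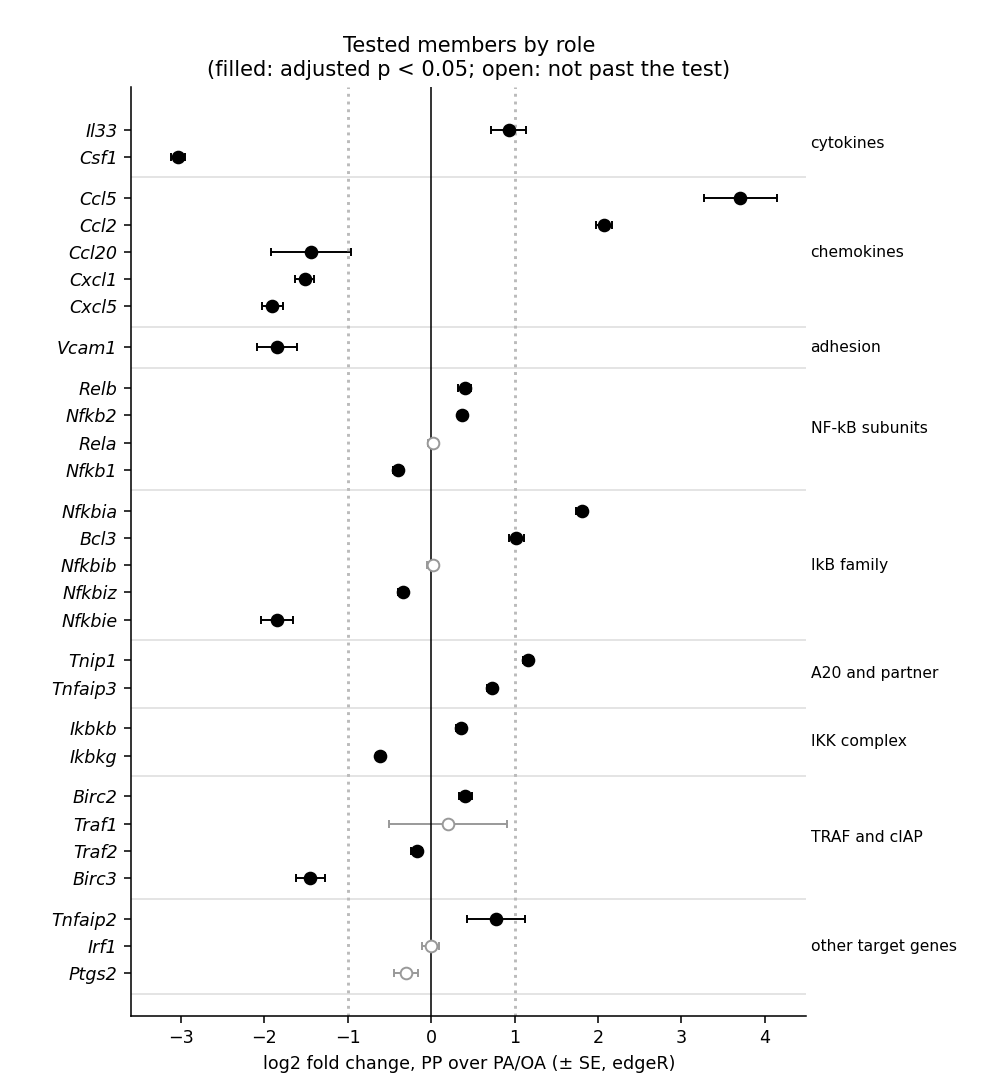
Log2 fold change of PP over PA/OA for the 28 tested members, grouped by role. Points are the fitted values, bars their standard errors, and filled points passed the test at an adjusted p of 0.05. Ccl5 (3.70) and Csf1 (-3.04) mark the ends, and within the chemokines and the IkB family members lie on both sides of 0.

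The promoters of 5 members are shown first, as examples of inhibitor and secreted factor genes with a kappa-B match that were higher or lower in PP. The members with the largest rises among the secreted factors, Ccl5 and Ccl2, had no matched promoter. Nfkbia and Nfkbie are the IkB genes with the largest rise and the largest fall. Tnip1, Cxcl1 and Csf1 were added after their values were seen, as a further brake gene that was higher and as secreted factors that were lower in PP. Each run covers 300 bases of the gene's strand in RefSeq (GRCm38.p6), 250 before and 50 after the annotated start, and capitals mark matches to the kappa-B consensus, the 10-base binding motif of NF-kB. The windows are chr12:55492598-55492897 (minus strand) for Nfkbia, chr17:45555450-45555749 (plus) for Nfkbie, chr11:54962891-54963190 (minus) for Tnip1, chr5:90890995-90891294 (plus) for Cxcl1 and chr3:107760420-107760719 (minus) for Csf1.
Nfkbia: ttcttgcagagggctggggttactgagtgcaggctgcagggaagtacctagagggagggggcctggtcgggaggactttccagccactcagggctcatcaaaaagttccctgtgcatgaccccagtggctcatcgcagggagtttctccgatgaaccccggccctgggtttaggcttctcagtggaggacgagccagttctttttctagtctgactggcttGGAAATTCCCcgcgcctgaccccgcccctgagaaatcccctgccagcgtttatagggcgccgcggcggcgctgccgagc
Nfkbie: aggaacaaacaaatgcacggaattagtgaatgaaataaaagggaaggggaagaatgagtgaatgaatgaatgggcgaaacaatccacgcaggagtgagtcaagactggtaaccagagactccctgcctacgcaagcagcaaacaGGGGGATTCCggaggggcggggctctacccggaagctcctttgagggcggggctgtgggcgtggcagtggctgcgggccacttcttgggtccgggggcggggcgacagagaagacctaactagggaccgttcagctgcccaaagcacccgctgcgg
Tnip1: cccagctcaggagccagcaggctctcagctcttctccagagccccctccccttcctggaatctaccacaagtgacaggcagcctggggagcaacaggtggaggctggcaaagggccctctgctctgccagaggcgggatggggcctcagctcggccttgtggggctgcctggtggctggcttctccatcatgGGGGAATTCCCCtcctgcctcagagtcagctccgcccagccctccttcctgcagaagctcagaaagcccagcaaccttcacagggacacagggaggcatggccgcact
Cxcl1: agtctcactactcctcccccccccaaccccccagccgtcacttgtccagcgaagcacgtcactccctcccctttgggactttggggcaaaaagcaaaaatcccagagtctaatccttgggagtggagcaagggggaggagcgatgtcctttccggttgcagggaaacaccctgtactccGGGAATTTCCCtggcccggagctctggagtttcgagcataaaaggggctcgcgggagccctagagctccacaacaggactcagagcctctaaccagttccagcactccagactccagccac
Csf1: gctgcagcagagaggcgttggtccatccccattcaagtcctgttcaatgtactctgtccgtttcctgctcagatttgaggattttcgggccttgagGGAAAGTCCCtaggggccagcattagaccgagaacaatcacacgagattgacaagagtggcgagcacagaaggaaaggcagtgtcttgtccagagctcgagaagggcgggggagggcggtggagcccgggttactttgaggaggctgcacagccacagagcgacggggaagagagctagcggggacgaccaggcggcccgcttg

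The match in Nfkbia, GGGAATTTCC, begins 29 bases before the start site on the opposite strand, and that in Nfkbie, GGGGGATTCC, begins 106 bases before it. Cxcl1 holds the same letters as Nfkbia, GGGAATTTCC, 71 bases before its start, overlapped by a match on the other strand. Csf1 holds GGGACTTTCC 154 bases before its start, on the opposite strand. Tnip1 holds overlapping matches on both strands around GGGAATTCCC, 57 bases before its start. So the same kind of motif stood in windows of members that were higher and of members that were lower in PP.

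RefSeq promoters were matched for 27 of the 36 members. The consensus, read on both strands, was found for 12 of these 27, against 5.13% of 26994 genes of the table with a promoter and 4.504% of 32817 windows of the same length. It stood in 5 of 8 members that were higher in PP (Bcl3, Nfkb2, Nfkbia, Tnfaip3 and Tnip1) and in 4 of 7 that were lower (Ccl20, Csf1, Cxcl1 and Nfkbie). Irf1, of 5 members that did not pass the test, and Cxcl2 and Il6, of 7 that were not tested, held it too. Many members were chosen as known NF-kB targets, so the share of members with a motif describes that choice, and a match is not a measured binding site. Ccl2, Ccl5, Ccl7, Cxcl5, Vcam1, Nfkb1, Relb, Nfkbiz and Ikbkb had no matched promoter.

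Among the secreted factors, PP cells had more mRNA of the chemokines Ccl2 and Ccl5 and of the cytokine Il33, and less of the growth factor Csf1 and of the chemokines Cxcl1, Cxcl5 and Ccl20. The 5 chemokine members tested thus went both ways. Ccl20 was lower, unlike Ccl2 and Ccl5, but had 10, 6 and 20 counts in PP, and 3 of 16 alternatives lost its call. Cxcl10, from the wider lists, was higher, unlike Cxcl1 and Cxcl5, but had 0, 0 and 2 counts in PA/OA.

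Ccl2, the main monocyte chemoattractant (chromosome 11, 82035571 to 82037453, plus strand, build mm10), had 38.5, 38.0 and 39.8 CPM in PP replicates 1 to 3, against 8.77, 9.89 and 8.93 CPM in PA/OA replicates 1 to 3. The groups were far apart, with every PP library above every PA/OA library. Ccl2 was 4.21-fold higher in PP (log2 fold change 2.08 ± 0.10 SE, adjusted p = 1.85e-14, edgeR). Ccl5 (RANTES, chromosome 11, 83525778 to 83530518, minus strand), which attracts T cells and monocytes, had 3.11, 3.29 and 1.67 CPM in PP, against 0.128, 0.200 and 0.286 CPM in PA/OA. PP replicate 3 was the lowest of its group and still well above PA/OA. The fitted fold was 13.04 (log2 3.70 ± 0.44, adjusted p = 1.17e-07, edgeR), but it rests on 4 to 8 counts per PA/OA library, and Ccl5 passed the filter through its PP counts alone. With the trend of fold change with abundance removed, its log2 fold change was 4.75.

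Cxcl1 (chromosome 5, 90891241 to 90893115, plus strand) and Cxcl5 (chromosome 5, 90759360 to 90761624, plus strand) code for ligands of the neutrophil receptor CXCR2. Cxcl1 had 8.58, 9.27 and 6.95 CPM in PP, against 23.3, 24.2 and 23.5 CPM in PA/OA. Cxcl5 had 9.005, 7.89 and 8.37 CPM in PP, against 29.6, 37.5 and 27.3 CPM in PA/OA. Neither gene's groups overlapped. Cxcl1 was 2.86-fold lower (log2 -1.52 ± 0.12, adjusted p = 1.39e-10, edgeR) and Cxcl5 3.74-fold lower (log2 -1.90 ± 0.12, adjusted p = 4.75e-12, edgeR).

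Ccl20 (chromosome 1, 83116766 to 83119167, plus strand), the ligand of CCR6 on lymphocytes and dendritic cells, was much less abundant, with 0.421, 0.217 and 0.728 CPM in PP, against 1.31, 0.799 and 1.64 CPM in PA/OA. The lowest PA/OA value lay just above the highest PP value. Its log2 fold change of -1.44 ± 0.48 passed the test (adjusted p = 0.0102, edgeR), but not without PP replicate 2 (-1.08, adjusted p = 0.0520) or without PA/OA replicate 3 (-1.20, adjusted p = 0.0713), nor with the trend with abundance removed (-0.33, adjusted p = 0.550).

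Csf1 (chromosome 3, 107741048 to 107760469, minus strand), the growth factor that macrophages depend on, showed the largest fall of all members. It had 12.5, 10.4 and 12.6 CPM in PP, against 101, 91.9 and 99.9 CPM in PA/OA, which is 8.23-fold lower in PP (log2 -3.04 ± 0.08, adjusted p = 5.51e-18, edgeR). Il33 (chromosome 19, 29925114 to 29960718, plus strand), a nuclear cytokine released by damaged cells, had 6.27, 6.23 and 7.75 CPM in PP, against 2.68, 4.79 and 3.14 CPM in PA/OA. PA/OA replicate 2 came closest to the PP range without reaching it (log2 0.93 ± 0.21, adjusted p = 0.00044, edgeR).

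The adhesion gene Vcam1 (chromosome 3, 116109949 to 116129688, minus strand), the partner of leukocyte integrin alpha 4 beta 1, was lower in PP, with 1.94, 1.56 and 1.31 CPM, against 6.89, 5.89 and 4.43 CPM in PA/OA. The 3.60-fold fall (log2 -1.85 ± 0.24, adjusted p = 4.9e-07, edgeR) was larger than the spread within either group. Icam1, the ligand of leukocyte beta 2 integrins, had 6, 4 and 6 counts in PP and 0, 2 and 4 counts in PA/OA, too few for a test. By library totals, without TMM scaling, the Icam1 ratio of PP to PA/OA was 2.24 (exact 95% interval 0.831 to 6.98). On the TMM scale Icam1 averaged 0.205 CPM in PP and 0.0698 CPM in PA/OA.

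**Figure D2:**
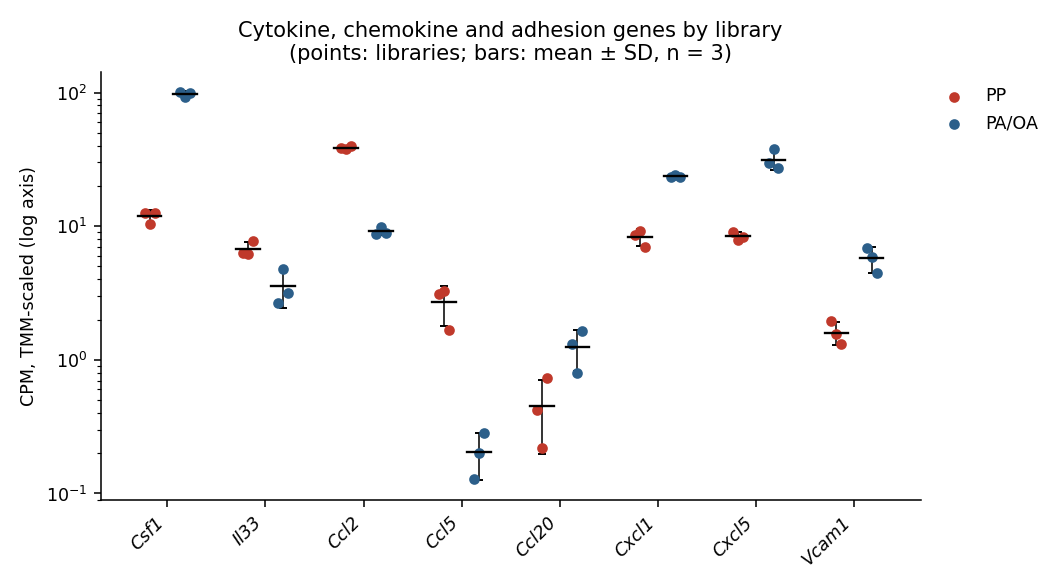
CPM per library (log axis) of the tested cytokine, chemokine and adhesion members, PP in red left of PA/OA in blue, each point a library and the bars mean ± SD. Ccl2 and Ccl5 lie higher in all PP libraries, and Csf1, Cxcl1, Cxcl5 and Vcam1 lower, while Ccl20 sits near 1 CPM with groups that nearly touch.

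The other secreted members were at the limit of detection in both groups. Tnf, the classical inducer of the pathway, had no count in any library, which at 3 counts over a group allows up to 0.0380 CPM in PP and 0.0335 CPM in PA/OA. Il6 had 2 counts in PP replicate 3 and none elsewhere. Il1b had 0, 4 and 2 counts in PP and none in PA/OA. Set against a floor of 3 counts over the PA/OA group, its ratio by library totals was 1.68. That ratio makes no allowance for error in the PP counts. With no filter Il1b was not called (log2 4.14 ± 2.27 SE, adjusted p = 0.129, edgeR). Il1a had 2, 4 and 0 counts in PP and 11, 4 and 8 in PA/OA, a ratio of 0.219 (interval 0.0729 to 0.553), but the annotated gene Gm14023 lies over it with 179% of its counts. Cx3cl1, the membrane-bound chemokine fractalkine, had 10, 14 and 5 counts in PP and 4, 0 and 8 in PA/OA (ratio 2.03, interval 1.00 to 4.36). Cx3cl1 entered the test when any PA/OA library was left out. It was called without PA/OA replicate 3 (log2 2.43, adjusted p = 0.0397, edgeR). It was not called without PA/OA replicate 1 (1.37, adjusted p = 0.207) or 2 (0.84, adjusted p = 0.345). Cxcl2, a close relative of Cxcl1, had 2, 2 and 4 counts in PP and 5, 7 and 4 in PA/OA (ratio 0.419, interval 0.155 to 1.04). Ccl7, a monocyte chemokine next to Ccl2, had 0, 4 and 2 counts in PP and 0, 2 and 0 in PA/OA (ratio 2.52, interval 0.450 to 25.5). With the filter dropped, 7 of these 8 genes could be tested by edgeR and none was called. All ratios and intervals on these counts use library totals without TMM scaling, so they lie lower than ratios of CPM would. The intervals reflect counting error alone. Small counts in the table were more often even than odd, so the true uncertainty may be larger.

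Genes that sit side by side did not share levels. Ccl2 lies 8.26 kb from Ccl7 on chromosome 11, and Cxcl1 lies 10.8 kb from Cxcl2 on chromosome 5, yet the second gene of each pair had at most 7 counts in any library. Cxcl5 lies 130 kb from Cxcl1, and both were lower in PP. Per length, the ratio of Ccl2 to Cxcl1 was 7.86 ± 1.41 in PP and 0.640 ± 0.0284 in PA/OA (SD, n = 3 each), so the more abundant of the pair was Ccl2 in PP and Cxcl1 in PA/OA. An exact two-sided permutation test gave p = 0.1, the smallest that 3 against 3 libraries allow, for this ratio and for each of the other 5 ratios of members computed, and all 6 were chosen after the values were seen.

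The NF-kB subunits differed little between the groups. Nfkb2 (p100, the precursor of p52) and Relb, the pair of the non-canonical branch, were somewhat higher in PP, Nfkb1 (p105, the precursor of p50) was lower, and Rela (p65), the main activating subunit, did not pass the test. Nfkb2 (chromosome 19, 46304737 to 46312090, plus strand) had 168, 164 and 169 CPM in PP, against 130.2, 124 and 132 CPM in PA/OA (log2 0.37 ± 0.05, adjusted p = 2.03e-06, edgeR). Relb (chromosome 7, 19606217 to 19629438, minus strand) had 53.8, 57.8 and 51.3 CPM in PP, against 38.3, 41.0 and 44.1 CPM in PA/OA (log2 0.40 ± 0.08, adjusted p = 6.25e-05, edgeR). Neither gene's groups overlapped. The direction of both rests on the scaling: with library size only their log2 fold changes were -0.064 and -0.033, and with the trend with abundance removed that of Nfkb2 was -0.043. Relb was not called with upper-quartile scaling (0.16, adjusted p = 0.0548, edgeR).

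Nfkb1 (chromosome 3, 135584655 to 135691547, minus strand) had 69.0, 72.3 and 75.0 CPM in PP, against 94.9, 93.1 and 97.6 CPM in PA/OA (log2 -0.40 ± 0.06, adjusted p = 3.59e-06, edgeR). It stayed lower under every scaling tried. Rela (chromosome 19, 5637483 to 5648130, plus strand) had 98.4, 96.8 and 96.1 CPM in PP, against 96.8, 86.7 and 103 CPM in PA/OA, with the PP values inside the PA/OA range (log2 0.02 ± 0.06, adjusted p = 0.762, edgeR). With library size only, upper-quartile scaling or the trend removed, Rela was called lower in PP, at -0.41, -0.22 and -0.32. A comparison of subunits within a library does not depend on a single scaling factor per library. Removal of the trend with abundance differs by gene, and the ratios were not computed with it. Per length, Nfkb2 over Nfkb1 was 8.50 ± 0.373 in PP and 4.97 ± 0.0664 in PA/OA, and Relb over Rela 0.391 ± 0.0234 and 0.302 ± 0.0270 (SD, n = 3 each), with no overlap of groups. Psd lies over Nfkb2 with 12.5% as many counts and Gm43430 over Nfkb1 with 2.61%, so their counts are uncertain if reads of both strands were counted.

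Within the IkB family, Nfkbia and Bcl3 were higher in PP, Nfkbie and Nfkbiz lower, and Nfkbib did not pass the test. Nfkbia (IkB-alpha, chromosome 12, 55489410 to 55492647, minus strand), the inhibitor that NF-kB itself induces fastest, had 201, 214 and 174 CPM in PP, against 54.2, 59.3 and 55.1 CPM in PA/OA. The lowest PP library lay far above the highest PA/OA library (3.49-fold higher in PP, log2 1.80 ± 0.07, adjusted p = 1.02e-15, edgeR). Nfkbie (IkB-epsilon, chromosome 17, 45555703 to 45563169, plus strand), another cytoplasmic inhibitor, had 2.23, 2.14 and 2.18 CPM in PP, against 7.49, 7.26 and 8.86 CPM in PA/OA. It was 3.60-fold lower (log2 -1.85 ± 0.19, adjusted p = 1.21e-08, edgeR). Per length, Nfkbia stood 170.2 ± 19.2 times above Nfkbie in PP and 13.6 ± 1.85 times in PA/OA (SD, n = 3 each).

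Bcl3 (chromosome 7, 19808462 to 19822770, minus strand), a nuclear IkB protein that works with p50 and p52 dimers, had 39.4, 37.9 and 36.1 CPM in PP, against 19.4, 16.5 and 19.97 CPM in PA/OA (2.03-fold higher, log2 1.02 ± 0.09, adjusted p = 1.45e-09, edgeR). Nfkbiz (IkB-zeta), a nuclear coactivator, had 63.5 ± 2.52 CPM in PP and 80.5 ± 1.55 CPM in PA/OA (SD, n = 3 each), with groups that did not overlap (log2 -0.34 ± 0.06, adjusted p = 4.15e-05, edgeR). Nfkbib (IkB-beta, chromosome 7, 28758251 to 28767512, minus strand) had 53.0, 56.2 and 55.5 CPM in PP, against 52.7, 52.4 and 57.8 CPM in PA/OA, with overlapping groups (log2 0.02 ± 0.07, adjusted p = 0.846, edgeR). Like Rela it was called lower in PP with library size only (-0.42), upper-quartile scaling (-0.22) or the trend removed (-0.21). Sirt2 and Ccer2 lie over Nfkbib with 180% of its counts, so its value is uncertain if strand was not used.

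Both genes of the A20 module were higher in PP. Tnfaip3 (A20, chromosome 10, 19000910 to 19015657, minus strand), a ubiquitin-editing enzyme that shuts off signalling to the IkB kinase, had 145, 161 and 144 CPM in PP, against 90.6, 95.9 and 85.5 CPM in PA/OA (log2 0.73 ± 0.06, adjusted p = 5.53e-10, edgeR). Tnip1 (chromosome 11, 54910785 to 54962917, minus strand), the ubiquitin-binding partner of A20, had 122, 127 and 117 CPM in PP, against 54.4, 53.3 and 56.4 CPM in PA/OA. Tnip1 was 2.23-fold higher (log2 1.158 ± 0.06, adjusted p = 1.52e-13, edgeR). Neither gene's groups overlapped, and both calls held under all 17 alternatives tried.

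**Figure D3:**
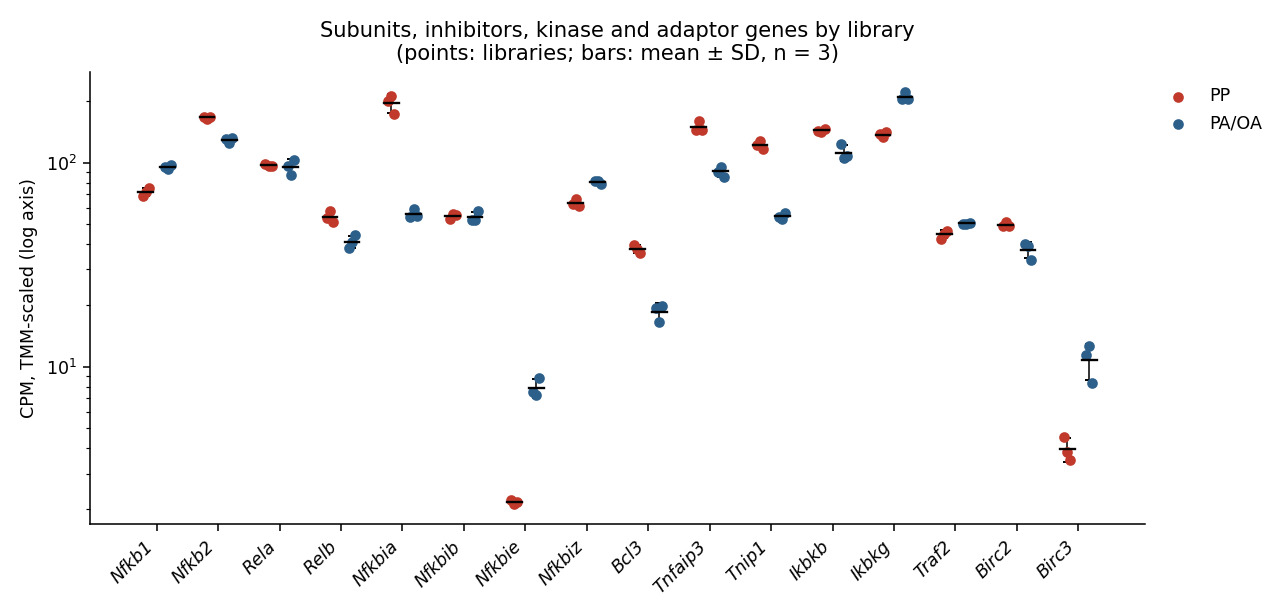
CPM per library (log axis) of the subunit, IkB, A20, IkB kinase, Traf2 and cIAP members, PP in red left of PA/OA in blue, each point a library and the bars mean ± SD. Nfkbia, Bcl3, Tnfaip3 and Tnip1 lie higher in PP and Nfkbie and Birc3 lower, while Rela and Nfkbib overlap.

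The 2 kinase subunits among the members moved in opposite directions. Ikbkb (IKK-beta, chromosome 8, 22659212 to 22706589, minus strand), the catalytic subunit of the canonical branch, had 143, 142 and 147 CPM in PP, against 124, 105 and 108 CPM in PA/OA (log2 0.36 ± 0.06, adjusted p = 1.97e-05, edgeR). Ikbkg (NEMO, chromosome X, 74393290 to 74453854, plus strand), the regulatory subunit, had 139, 133 and 141 CPM in PP, against 205, 222 and 205 CPM in PA/OA (log2 -0.61 ± 0.06, adjusted p = 1.49e-09, edgeR). Neither gene's groups overlapped. The higher level of Ikbkb depends on the scaling, with -0.075 for library size only, -0.029 with the trend removed and no call with upper-quartile scaling. G6pdx lies over Ikbkg with 15.2% as many counts. Within libraries, the ratio of Ikbkb to Ikbkg per length was 0.445 ± 0.00691 in PP and 0.227 ± 0.0274 in PA/OA (SD, n = 3 each). Chuk (IKK-alpha), another subunit of this kinase, belongs to the wider lists. With TMM scaling it had 340 ± 19.6 CPM in PP and 243 ± 18.2 CPM in PA/OA (log2 0.49 ± 0.06, adjusted p = 2.39e-07, edgeR).

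Birc2 and Birc3 code for cIAP1 and cIAP2, ubiquitin ligases bound to TRAF2 at TNF receptors, and lie 11.6 kb apart on chromosome 9 in the same orientation. Birc3 (7848699 to 7873186, minus strand) had 4.54, 3.84 and 3.49 CPM in PP, against 11.4, 12.6 and 8.36 CPM in PA/OA, and was 2.73-fold lower (log2 -1.45 ± 0.18, adjusted p = 2.03e-07, edgeR). Birc2 (7818227 to 7837064, minus strand) had 49.1, 51.5 and 48.9 CPM in PP, against 39.9, 39.3 and 33.5 CPM in PA/OA, without overlap (log2 0.41 ± 0.08, adjusted p = 8.15e-05, edgeR). Birc2 was at -0.028 with library size only and was not called with upper-quartile scaling. Per length, Birc2 over Birc3 was 13.9 ± 1.87 in PP and 3.88 ± 0.488 in PA/OA (SD, n = 3 each).

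Traf2 (chromosome 2, 25517982 to 25546940, minus strand), the adaptor that carries the cIAP proteins, had 42.5, 44.9 and 46.4 CPM in PP, against 50.1, 50.3 and 51.0 CPM in PA/OA. Its small fall (log2 -0.18 ± 0.07, adjusted p = 0.0274, edgeR) was not called when PA/OA replicate 1 or 3 or any of the PP replicates was left out, with adjusted p from 0.0536 to 0.199. Traf1, a TRAF protein without a RING domain, had 0, 0.434 and 0.728 CPM in PP, against 0.446, 0.366 and 0.214 CPM in PA/OA, with overlapping groups (log2 0.20 ± 0.70, adjusted p = 0.806, edgeR). With the trend with abundance removed Traf1 was at 2.08 and called (adjusted p = 0.0144, edgeR). Its counts were 0, 12 and 20 in PP and 14, 11 and 6 in PA/OA.

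Of the 3 other target genes, Tnfaip2, which TNF induces in endothelial and myeloid cells, had 1.35, 1.59 and 1.71 CPM in PP, against 0.988, 0.899 and 0.822 CPM in PA/OA. The groups did not overlap, but the adjusted p of 0.0486 (log2 0.78 ± 0.35, edgeR) is close to the threshold. The call was lost under 13 of 17 alternatives, among them leaving out any of the PA/OA libraries or PP replicate 2 or 3 (adjusted p from 0.0708 to 0.118). Ptgs2 (cyclooxygenase-2), the inducible prostaglandin synthase, had 17.0, 10.5 and 16.7 CPM in PP, against 15.9, 19.0 and 19.4 CPM in PA/OA. PP replicate 2 was the lowest of all, and the other two PP libraries lay inside the PA/OA range (log2 -0.30 ± 0.14, adjusted p = 0.0628, edgeR). Ptgs2 was called lower under 10 of the 17 alternatives, with values from -0.74 to -0.29, among them leaving out PP replicate 1, PP replicate 3 or PA/OA replicate 1 (-0.39 each). Without PP replicate 2 it was at -0.087 and not called (adjusted p = 0.526, edgeR). Irf1, a transcription factor that interferon gamma and NF-kB both induce, had 17.5, 17.3 and 16.4 CPM in PP, against 18.3, 17.0 and 16.005 CPM in PA/OA, with overlapping groups (log2 -0.00 ± 0.10, adjusted p = 0.966, edgeR). Both Ptgs2 and Irf1 were called lower with library size only (-0.74 and -0.44) and with upper-quartile scaling (-0.54 and -0.24).

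Per length, Nfkbia was the most abundant member in PP, at 122 RPKM (CPM divided by length in kilobases), followed by Nfkb2 at 50.7 RPKM. Rela, Tnip1 and Ccl2 came next in PP, at 35.8 ± 0.438, 34.5 ± 1.43 and 34.1 ± 0.850 RPKM (SD, n = 3). Tnip1 overlapped both of its neighbours in this order, while every Rela value lay above every Ccl2 value. In PA/OA Nfkb2 led with 39.2 RPKM, and Rela at 35.2 ± 3.07 RPKM and Nfkbia at 34.9 ± 1.71 RPKM (SD, n = 3) followed, with overlapping values. Lengths are those given in the deposited table and do not take account of which isoform was present.

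**Figure D4:**
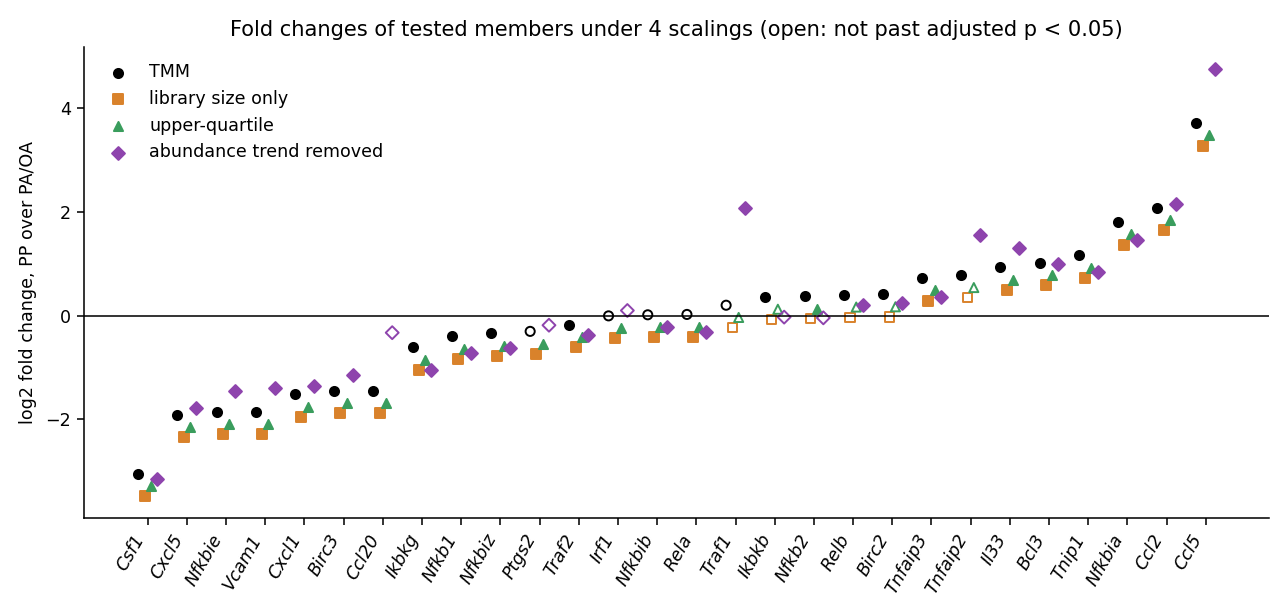
Log2 fold change of PP over PA/OA for each tested member under 4 scalings: TMM, upper-quartile, library size only, and TMM with the trend with abundance removed. Members with large changes keep their side of 0, while Rela, Nfkbib, Nfkb2, Relb, Ikbkb, Birc2, Irf1 and Traf1 have values on both sides of 0. Open symbols did not pass the test.

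Library size only and upper-quartile scaling move all members together. Removal of the trend with abundance does not. It raised Ccl5 from 3.70 to 4.75 and Ccl20 from -1.44 to -0.33, and lowered Birc2 from 0.41 to 0.24. Relative to TMM, library size only shifted the median of all genes by -0.43 on the log2 scale and upper-quartile scaling by -0.24, so the members' directions read best against that shift. With library size only, 7 members were higher and 15 lower in PP, while all genes gave 3235 higher and 8910 lower. With upper-quartile scaling 8 members were higher and 15 lower, while all genes gave 4241 and 7688. Of the 23 members called with TMM, 16 kept the same call under all 17 alternatives and none was called in the opposite direction. Of the 12 members at least 2-fold changed, all but Ccl20 kept their call.

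The wider pathway was covered by 111 further genes in 5 lists, of which 83 were tested. Of these, 42 were higher (50.6%) and 22 lower (26.5%) in PP and 19 did not pass the test, against 35.1% higher and 39.9% lower of all genes tested. Their median log2 fold change was 0.29, and that of all genes -0.09. No test of the lists against other genes was made. The genes named below are the up to 2 largest rises and 2 largest falls of each list among called genes whose average log2 CPM reached 1. Values of these lists are given with TMM scaling only, to which the shifts given above apply. Removing the trend with abundance took the members' median from 0.02 to -0.11 and that of all genes from -0.09 to 0.01. How far the shares and medians of the wider lists follow abundance was not tested.

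Among 18 receptor genes, 11 were tested, 2 were higher (18.2%), 5 lower (45.5%) and 4 not past the test, and the median was -0.17. Il1r1, the interleukin-1 receptor, fell to 0.749 ± 0.238 CPM in PP, against 5.46 ± 0.965 CPM in PA/OA (log2 -2.86 ± 0.28, adjusted p = 4.9e-09, edgeR), and Il6ra to 13.2 ± 0.528 CPM, against 28.8 ± 0.840 CPM. Tnfrsf1a, the main TNF receptor, was at 116 ± 3.90 CPM in PP and 82.9 ± 4.99 CPM in PA/OA (log2 0.48), and Il6st (gp130), the shared signal chain of the interleukin-6 family, at 292 ± 27.9 CPM in PP and 215 ± 6.56 CPM in PA/OA (log2 0.45). Both of these rises are about as large as the shift that scaling by library size only brings.

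All 28 adaptor and kinase genes were tested, 16 were higher (57.1%, against 35.1% of all genes) and 8 lower (28.6%, against 39.9%), and their median was 0.33. Myd88, the adaptor of interleukin-1 and most Toll-like receptors, had 3.10 ± 0.426 CPM in PP and 13.7 ± 0.992 CPM in PA/OA (log2 -2.15), and Irak4, the kinase it recruits, 5.11 ± 0.490 and 17.1 ± 0.793 CPM (log2 -1.74). Irak3 (IRAK-M), an inhibitory relative, had 8.44 ± 1.71 CPM in PP and 2.15 ± 0.288 CPM in PA/OA (log2 1.97). Ticam1 (TRIF), the adaptor of the MyD88-independent branch, had 29.6 ± 0.707 CPM in PP and 10.9 ± 0.731 CPM in PA/OA (log2 1.44). Myd88, Irak4 and Irak3 lie under genes with over 10 times their counts (1029%, 1972% and 1854% of their own), so these 3 are uncertain if strand was not used.

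Of 15 further inhibitors and the subunit Rel, 14 were tested, 7 were higher (50%) and 3 lower (21.4%), and the median was 0.42. Tollip, an inhibitor of interleukin-1 receptor signalling, had 171 ± 1.98 CPM in PP and 63.0 ± 2.47 CPM in PA/OA (log2 1.44), and Nkiras2, which binds IkB proteins, 86.4 ± 1.17 and 39.4 ± 3.71 CPM. Dnajc7 and Zfp385c lie over Nkiras2 with 104% of its counts. Zc3h12a (Regnase-1), an RNase that degrades inflammatory mRNAs, was lower in PP, at 7.63 ± 1.78 CPM against 17.8 ± 0.219 CPM in PA/OA (log2 -1.23), as was Nlrx1, at 2.52 ± 0.324 against 5.81 ± 1.08 CPM (log2 -1.21). Rel itself had 29.7 ± 4.25 CPM in PP and 28.1 ± 1.67 CPM in PA/OA and did not pass the test (adjusted p = 0.491, edgeR).

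Of 30 other genes known as NF-kB targets, 20 were tested, 13 were higher (65.0%, against 35.1% of all genes) and 5 lower (25.0%, against 39.9%), and the median was 0.93. The other 2, Lcn2 (log2 -0.08, adjusted p = 0.245, edgeR) and Sod2 (log2 -0.05, adjusted p = 0.577, edgeR), did not pass the test. Gadd45b, a stress protein that restrains JNK signalling, had 184 ± 13.5 CPM in PP and 15.8 ± 2.45 CPM in PA/OA (log2 3.55 ± 0.09). Cxcl10, also a gene of the interferon response, had 91, 146 and 145 counts in PP and 0, 0 and 2 counts in PA/OA. It passed the filter through its PP counts alone. Csf3, the granulocyte growth factor, was lower in PP with 37, 28 and 25 counts, against 87, 111 and 109 counts in PA/OA (log2 -1.58), and so was Plau, the urokinase, with 2.62 ± 0.340 against 6.08 ± 0.574 CPM (log2 -1.22). Of 20 other adhesion genes 10 were tested, 4 were higher (40.0%), 1 was lower (10%) and 5 did not pass. Itgb2, the beta 2 chain of leukocyte integrins, had 4.199 ± 0.180 CPM in PP and 0.791 ± 0.535 CPM in PA/OA (log2 2.40), and F11r, a tight junction protein, 319 ± 10.2 and 191 ± 3.90 CPM (log2 0.74). Cdh2 (N-cadherin) was the gene that was lower, at 109.6 ± 1.63 CPM in PP and 157 ± 1.86 CPM in PA/OA (log2 -0.52).

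**Figure D5:**
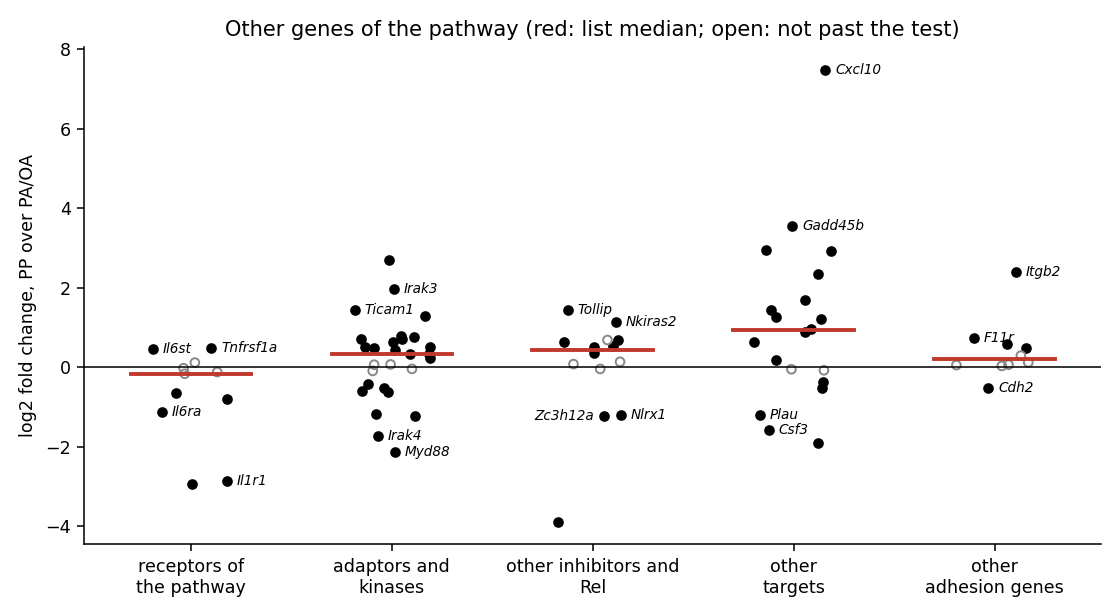
Log2 fold change of PP over PA/OA for the 83 tested genes of the 5 wider lists, filled where the test was passed, with the list medians as red lines. Named genes are those that the naming rule picks, and the medians lie between -0.17 for receptors and 0.93 for other targets.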

How the data were processed

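RNA of 6 AML12 libraries was measured, 3 labelled PP and 3 labelled PA/OA. The deposited values are unnormalized read counts of each gene. The submitters' processing notes name featureCounts, build mm10 and DESeq2 1.16.1, the role of the last unstated. Not given in the sources used here are the aligner, the annotation, the strand setting and the way of obtaining mRNA. Symbols, lengths and coordinates came from the table. Even values made up 57.1% to 61.5% of counts from 1 to 20, so precision may be lower than the totals give.

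The members, their grouping by role and the wider lists were chosen with earlier results of these data known. The analysis used edgeR 4.0.16 in R 4.3.3. After filterByExpr (15718 genes kept) and TMM scaling, a quasi-likelihood F-test (two-sided) of PP against PA/OA was fitted over all genes, with Benjamini-Hochberg adjustment over all of them and a threshold of 0.05. The script was tested on simulated data. CPM and RPKM use TMM-scaled library sizes. Replicates are numbered as in the labels. Members are given with values in every library where they were at least 2-fold changed and past the test, where their direction depends on the scaling, or where they led their role in abundance; some others were added after their values were seen. Ratios between members used an exact two-sided permutation test. The biological coefficient of variation was 7.96%.

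Other scalings tried were DESeq2 1.42.0 size factors, upper-quartile factors and library size only. Other filters were none, a minimum of 1 CPM in 3 libraries, and protein-coding genes only. Other models were the DESeq2 Wald test, limma-voom (limma 3.58.1) and a block for the replicate number. The rest were halved counts, removal of the lowess trend (span 0.4) of fold change with abundance, and leaving out each library. Promoters came from RefSeq (GRCm38.p6), and Ccl2, Bcl3, Ikbkb, Tnip1, Traf2, Vcam1, Irf1, Tnfaip2, Icam1 and Il1b also overlap other annotated genes.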

Additional observations from a re-analysis of the deposited data

How the results depend on the processing

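Library size only left 3235 genes and 7 members higher in PP, and the members' median log2 fold change was then -0.42; it was -0.22 with upper-quartile scaling, 0.21 with no filter and -0.11 with the trend with abundance removed. No filter also tested 7 members with few counts. Leaving out a library in turn gave 5313 to 5485 genes higher and 6061 to 6452 lower, 11 to 12 members higher and 9 to 11 lower, and a members' median from -0.01 to 0.07. The replicate number as a block gave 5427 genes higher and 6088 lower, 11 members higher and 11 lower and a median of 0.01. Same-numbered libraries correlated at 0.06, 0.03 and -0.05 in their deviations from the group means over 9122 genes. Libraries with unlike numbers correlated at -0.08 to 0.04. These values show no sign of pairing by number, but so few libraries cannot exclude a weak one.

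Signs opposite to those given above were seen for Rela, Nfkbib, Irf1 and Traf1, which did not pass the test, and for Birc2, Relb, Nfkb2 and Ikbkb, which did (0.36 to 0.41). With library size only, log2 fold changes were -0.028 for Birc2, -0.075 for Ikbkb, -0.064 for Nfkb2, -0.033 for Relb, -0.42 for Nfkbib, -0.41 for Rela and -0.23 for Traf1. With upper-quartile scaling they were -0.22 for Nfkbib, -0.22 for Rela and -0.036 for Traf1. With the trend removed they were -0.029 for Ikbkb, -0.043 for Nfkb2, -0.21 for Nfkbib, -0.32 for Rela and 0.10 for Irf1. Nfkbib and Rela were at -0.038 and -0.031 with at least 1 CPM in 3 libraries, at -0.067 and -0.060 with protein-coding genes only, and at -0.018 and -0.012 with halved counts. Irf1 was at 0.0087 with no filter. Traf1 was at -0.75 with limma-voom and -0.095 with the block. Without single libraries, values ran from -0.048 to 0.050 for Irf1, from -0.0066 to 0.065 for Nfkbib, from -0.57 to 0.77 for Traf1 and from -0.040 to 0.084 for Rela. The cause of these changes was not tested, apart from the shift that the scaling itself brings. Ccl20 and Traf1 were not tested with at least 1 CPM in 3 libraries, nor Traf1 with halved counts. Depth limits the 8 members below the filter to their raw counts and, apart from Tnf, a test with no filter that called none of them. Cx3cl1 was also tested when single PA/OA libraries were left out, and was called only without PA/OA replicate 3.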
